A study of Mus musculus with 6 samples.

Results

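The Krüppel-like factors are zinc finger transcription factors, and 10 of their genes are described here: Klf2, Klf3, Klf4, Klf5, Klf6, Klf7, Klf9, Klf10, Klf13 and Klf15. They were found by matching Ensembl gene identifiers to mouse symbols, and all 10 were present among the 43432 genes of the count tables. All 10 also passed the filter on low counts, which left 13560 genes for testing. RNA came from spinal cord tissue of wildtype C57BL/6 mice. The injured group (SCI, n = 3 mice) was struck on 1 side of the cord at cervical level 5 by an impactor set to 50 kdyn, and tissue was taken 4 h later. The control group (sham, n = 3 mice) had a laminectomy, the removal of bone over the cord, at the same level and no contusion. The collection time is stated for the injured mice. Age and sex were not used here.

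Each Krüppel-like factor ends in 3 zinc fingers that bind GC-rich DNA and the CACCC box, and the rest of the protein decides which cofactors are drawn to the site. KLF2, KLF4, KLF5, KLF6 and KLF7 recruit histone acetyltransferases, KLF3 binds the corepressor CtBP, and KLF9, KLF10 and KLF13 bind the corepressor SIN3A. In neurons of the central nervous system KLF6 and KLF7 are known to promote axon growth and KLF4 and KLF9 to restrain it, while KLF2 and KLF4 keep blood vessel endothelium quiescent.

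The letters before the start of Klf6, the member that passed the test, and of Klf2 and Klf4, the endothelial pair, are given first, because KLF genes are themselves controlled by inducible factors. Each line holds the 250 bases before the start in RefSeq (GRCm38.p6), and capitals mark matches on either strand to any motif searched. The motifs were GGGCGG (GC box), CACCC, TGACGTCA (CRE), TGACTCA (AP-1), CACGTG (E-box), CTA and TAG separated by any 4 bases (MEF2-like), the glucocorticoid response element and the SRF CArG box. Klf6 lies on the plus strand at chr13:5861239-5861488, Klf2 on the plus strand at chr8:72318812-72319061 and Klf4 on the minus strand at chr4:55532476-55532725.
Klf6: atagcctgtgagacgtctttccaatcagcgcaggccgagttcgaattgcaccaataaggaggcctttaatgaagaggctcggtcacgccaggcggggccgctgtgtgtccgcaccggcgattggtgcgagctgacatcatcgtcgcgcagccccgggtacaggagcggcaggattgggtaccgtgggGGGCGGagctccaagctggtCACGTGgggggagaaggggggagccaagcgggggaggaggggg
Klf2: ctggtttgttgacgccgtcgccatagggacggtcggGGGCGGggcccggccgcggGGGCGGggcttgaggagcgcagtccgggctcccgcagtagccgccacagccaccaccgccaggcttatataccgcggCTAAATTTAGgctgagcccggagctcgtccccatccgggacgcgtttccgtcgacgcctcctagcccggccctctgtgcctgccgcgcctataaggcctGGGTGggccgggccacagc
Klf4: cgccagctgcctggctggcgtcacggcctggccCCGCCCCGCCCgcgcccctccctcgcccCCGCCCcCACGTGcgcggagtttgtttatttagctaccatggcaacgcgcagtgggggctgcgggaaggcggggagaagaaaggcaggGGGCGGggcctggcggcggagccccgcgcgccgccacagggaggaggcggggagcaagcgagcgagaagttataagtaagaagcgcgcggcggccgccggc
The Klf6 window held 1 GC box and 1 E-box, which begin 63 and 43 bases before the start. The Klf2 window held 1 MEF2-like match, which begins 118 bases before the start, besides 2 GC boxes and 1 CACCC box. The Klf4 window held 4 GC boxes, of which the first pair overlaps by 1 base, and 1 E-box. RefSeq promoters were matched for 8 of the 10 members. In windows of 300 bases that run 50 bases past the start, the GC box was present in 7 of the 8 and in 35.7% of all 32851 promoters. The CACCC box was present in 6 of the 8 and in 57.5% of all, and the E-box in 3 of the 8 and in 7.15% of all. The windows of the 8 were 58.3% to 76.7% G and C, and the part of base content in these shares was not tested. The MEF2-like letters were present in 1 of the 8 and in 3.69% of all. No member window held the CRE, the AP-1 site, the glucocorticoid response element or the CArG box, which 1.79%, 5.20%, 0.475% and 1.63% of all promoters held. A match is a description of letters and not a binding site.

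The 6 libraries held 3407176 to 11543633 counts, and 17535 to 18442 genes were detected in each. Markers of cord cells were read: all 13 neuron, 10 astrocyte and 9 oligodendrocyte genes had counts. Of 10 listed HOX genes 9 had counts. Of the lumbar HOX genes Hoxc10 and Hoxd10, Hoxc10 had counts and Hoxd10 had none. The presence of counts does not settle the origin, because all 18 hepatocyte and 9 skeletal muscle genes had counts as well. Transcripts of hepatocytes were present too. The 18 listed hepatocyte genes held 6.49% to 12.1% of the counts of a sham library and 8.15% to 8.44% of those of an SCI library, highest in sham 2 and lowest in sham 3. Levels and summed levels are given as CPM, counts per 1e6 of the library size after TMM scaling, so they differ from shares of the raw total by each library's scaling factor. The libraries were made with the QuantSeq kit, which reads near the 3′ end of a transcript, so a count does not scale with transcript length and levels of different genes are given without a length correction. In bulk tissue, fewer cells of a type and less RNA per cell cannot be told apart. The labels do not give the animal of each library, and libraries were treated as separate mice because the study's design text gives 3 mice in each group.

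Of the 10 KLF genes, 1 was called higher after contusion and none lower. The called gene was Klf6. Among all genes tested, 0.885% were called higher (120 of 13560) and 0.0442% lower (6 of 13560). Without sham 1 these counts were 62 and 1, and the lower genes numbered between 1 and 14 when single libraries were left out. Calls were made with edgeR's quasi-likelihood test at a Benjamini-Hochberg adjusted p under 0.05. By edgeR's unadjusted p under 0.05 there were 2 KLF genes, Klf6 and Klf13, beside 7.38% of all genes. DESeq2 called 1 KLF gene higher and 0 lower, as edgeR did. SCI libraries all lay above sham libraries in 2 of the 10 KLF genes, again Klf6 and Klf13, beside 7.73% of all genes. No KLF gene lay wholly below sham, as 5.94% of all genes did. The median log2 fold change of the 10 was 0.09, beside -0.0025 over all genes tested, and 7 of the 10 values were positive.

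**Figure D1:**
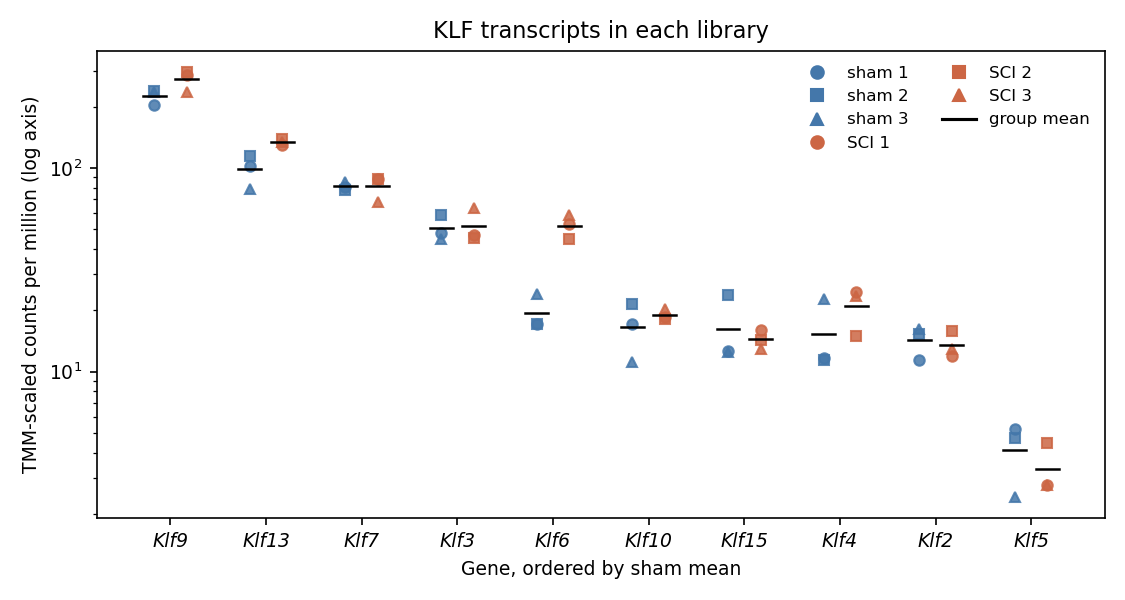
TMM-scaled CPM (log axis) of the 10 KLF genes, ordered by sham mean, with 1 point per library (3 sham, 3 SCI) and a bar at each group mean. The SCI points of Klf6 (44.6 to 58.7 CPM) and Klf13 (130.1 to 138 CPM) sit above all their sham points, and the groups of the other 8 genes overlap.

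Klf6, a KLF that promotes axon growth and is also induced early in injured liver and endothelium, lies at chromosome 13, 5861482 to 5870394 (GRCm38; ENSMUSG00000000078). It was at 17.1, 17.2 and 24.1 CPM in sham libraries 1 to 3 and at 53.0, 44.6 and 58.7 CPM in SCI libraries 1 to 3. The lowest SCI library thus lay well above the highest sham library, sham 3. The group means were 19.5 ± 4.03 and 52.1 ± 7.07 CPM (SD, n = 3 mice each). Klf6 rose by 1.44 ± 0.20 on the log2 scale (SE; edgeR adjusted p = 0.00124), which is 2.71-fold, and ranked 121 from the top among the 13560 genes. The call held without each single library, with log2 fold changes of 1.34 to 1.60 and edgeR adjusted p of 0.00010 to 0.0250. In a fit with the mean log2 CPM of the hepatocyte genes as a covariate it was 1.42 ± 0.17 (edgeR adjusted p = 1.44e-05).

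Klf7, the closest relative of Klf6 and like it a promoter of axon growth, lies at chromosome 1, 64029447 to 64122282. It was at 80.5, 77.8 and 85.4 CPM in sham and at 88.5, 88.5 and 68.0 CPM in SCI. SCI 3 was the lowest of all 6 libraries and the other two SCI libraries were the highest, so the groups overlapped. The log2 fold change was 0.01 ± 0.18, and 2 SE on either side reached from -0.34 to 0.37 (edgeR adjusted p = 0.995). Within each library the ratio of Klf6 to Klf7 was 0.212, 0.222 and 0.283 in sham and 0.598, 0.504 and 0.863 in SCI. The ratio was higher in 3 of 3 SCI libraries than in any sham library, by 1.43 on the log2 scale. With Klf7 nearly level, this separation restates the rise of Klf6 and is not a separate result. The exact two-sided permutation test gave p = 0.1, the smallest that 3 against 3 can give, and 0.25 after adjustment over the 5 pairs of KLF genes compared.

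Marker lists of other processes and cells were read beside Klf6. For comparison, 0.885% of all genes tested were called higher and 0.0442% lower. An unadjusted p under 0.05 was found in 7.38% of them, 5.94% lay wholly below sham, and 6734 of 13560 had positive log2 fold changes. Of 13 tested immediate early genes, which answer a stimulus or tissue handling within minutes, 6 were called higher and 13 had positive log2 fold changes. Their 15 listed members summed to 202 to 265 CPM in sham and 478 to 594 CPM in SCI. All 12 neutrophil markers had counts, 6 of the 7 tested had positive log2 fold changes and 0 were called by edgeR, while 5 of the 7 had an unadjusted p under 0.05. The 12 summed to 20.3 to 52.7 CPM in sham and 57.7 to 80.6 CPM in SCI. Erythroid markers were called higher in 5 of 7 tested members, the 4 globin genes listed and Alas2, and the 9 matched markers summed to 657 to 896 CPM in sham and 1636 to 4317 CPM in SCI. The calls of Hba-a1 and Hba-a2 were lost without sham 2 or sham 3, that of Hbb-bs without sham 1, SCI 1 or SCI 3, and that of Alas2 without sham 1, sham 2, SCI 1 or SCI 3 (edgeR adjusted p from 0.0522 to 0.458). Of 12 tested microglia markers, 1 was called lower, 4 had an unadjusted p under 0.05 and 3 lay wholly below sham, with a median log2 fold change of -0.23. The called marker was P2ry12, a purinergic receptor of resting microglia, which fell by 1.91 ± 0.37 on the log2 scale (edgeR adjusted p = 0.0157; chosen after its values were seen). Its call was lost without sham 1, SCI 1 or SCI 3 (edgeR adjusted p from 0.0758 to 0.119). The summed level of the 12, most of it from Csf1r and C1qa, was 289 to 333 CPM in sham and 274 to 355 CPM in SCI. The part of any of these lists in the level of Klf6 was not tested.

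The genes most like Klf6 were sought by Pearson correlation of log2 CPM over the 6 libraries, among 10470 genes with a mean of at least 5 CPM. They were Map3k6, a stress kinase (r = 0.998), Egr1, an immediate early zinc finger factor (r = 0.997), and Akap12, a scaffold of protein kinase A (r = 0.997). All 3 were called higher, with log2 fold changes of 2.95, 2.25 and 1.23, and Akap12 lost its call without sham 1 (edgeR adjusted p = 0.0589). In all, 173 genes had r of at least 0.9 with Klf6. The points share the difference between groups and the libraries' depth, so these values are a description.

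Klf4, a restrainer of axon growth that also acts in endothelium and monocytes, lies at chromosome 4, 55527143 to 55532466. It was at 11.7, 11.4 and 22.8 CPM in sham and at 24.7, 15.01 and 23.4 CPM in SCI. Sham 3 lay with the upper SCI libraries and SCI 2 lay near the lower sham libraries, so the groups overlapped. The log2 fold change was 0.51 ± 0.28 (edgeR adjusted p = 0.754), with a range of -0.06 to 1.08 at 2 SE. Without sham 3 it was 0.87 ± 0.26 (edgeR adjusted p = 0.170) and without sham 2 it was 0.33 ± 0.28 (edgeR adjusted p = 0.787).

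Klf2, a shear stress-induced KLF of endothelium and of resting T cells, lies at chromosome 8, 72319033 to 72321656. It was at 11.4, 15.3 and 16.3 CPM in sham and at 11.97, 15.9 and 12.9 CPM in SCI. The groups covered nearly the same range. The log2 fold change was -0.07 ± 0.23 (edgeR adjusted p = 0.981), with -0.53 to 0.39 at 2 SE. The ratio of Klf4 to Klf2 was 1.02, 0.742 and 1.40 in sham and 2.06, 0.945 and 1.82 in SCI, and these groups overlapped too (exact two-sided permutation test, p = 0.3; 0.5 adjusted over 5 pairs). T cell markers were near background, with Trac and Cd8a at 0 in every library and the 10 listed genes at 2.17 to 3.95 CPM in sham and 4.16 to 4.71 CPM in SCI. The 12 endothelial markers summed to 438 to 621 CPM in sham and 530 to 564 CPM in SCI.

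Genes known to answer KLF2 and KLF4 in endothelium were called higher in 3 of 20 tested members and lower in 0. Over all genes tested the shares were 0.885% and 0.0442%. The median log2 fold change of the 20 was 0.15. Thbd, the anticoagulant thrombomodulin, which both factors induce, rose by 1.93 ± 0.24 (log2, SE; edgeR adjusted p = 0.00044). Edn1, the vasoconstrictor endothelin 1, which KLF2 is known to repress, rose by 2.03 ± 0.43. Its call was lost without sham 1, sham 2 or any one of the SCI libraries (edgeR adjusted p from 0.071 to 0.178). Nos3, the endothelial nitric oxide synthase that both factors induce, had levels of 3.73 ± 1.09 (sham) and 4.798 ± 1.08 CPM (SCI) (chosen after its values were seen). Of 10 tested genes of the ERK5 and MEF2 route that drives Klf2 and Klf4, none was called by edgeR. An unadjusted p under 0.05 was found for 1 of the 10, beside 7.38% of all genes tested. That gene was Mef2c, a MEF2 factor, at 34.1 ± 3.52 CPM (sham) and 23.9 ± 0.840 CPM (SCI) (edgeR adjusted p = 0.442).

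Klf5, which supports growth of epithelium and vascular smooth muscle, lies at chromosome 14, 99298691 to 99315036, and was the scarcest of the 10. It was at 5.25, 4.72 and 2.44 CPM in sham and at 2.78, 4.48 and 2.78 CPM in SCI, from 9 to 49 counts a library. Sham 3 was the lowest library. Klf5 had a log2 fold change of -0.36 ± 0.38 (edgeR adjusted p = 0.922), and at 2 SE this reached from -1.12 to 0.41, the widest range of the 10.

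Klf3, a CtBP-binding repressor of erythroid and fat cell genes, lies at chromosome 5, 64803388 to 64832901. It was at 48.2, 58.7 and 45.0 CPM in sham and at 46.7, 45.2 and 63.4 CPM in SCI. The highest library was SCI 3 and the lowest was sham 3, and the groups overlapped. Its log2 fold change of 0.02 ± 0.19 came with -0.36 to 0.41 at 2 SE (edgeR adjusted p = 0.993).

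Klf9, the most abundant of the 10 and a target of glucocorticoid and thyroid hormone that restrains axon growth, lies at chromosome 19, 23141226 to 23168134. It was at 203, 239 and 235 CPM in sham and at 286, 295 and 236 CPM in SCI. SCI 3 lay within the sham range and the other two SCI libraries above it. The log2 fold change was 0.27 ± 0.20 (edgeR adjusted p = 0.859), with -0.12 to 0.66 at 2 SE. The ratio of Klf6 to Klf9, a promoter to a restrainer of axon growth, was 0.0840, 0.0722 and 0.103 in sham and 0.185, 0.151 and 0.249 in SCI. It was higher in 3 of 3 SCI libraries than in any sham library (exact two-sided permutation test, p = 0.1, and 0.25 adjusted over 5 pairs). This separation mostly restates the rise of Klf6 (log2 fold change 1.44), since Klf9 changed by 0.27, and is not a separate result. The ratio of Klf4 to Klf9, both restrainers, was 0.0575, 0.0476 and 0.0968 in sham and 0.0863, 0.0508 and 0.0992 in SCI (exact two-sided permutation test, p = 0.7; 0.875 adjusted).

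Klf13, a close relative of Klf9 that also acts in T cells and heart development, lies at chromosome 7, 63886351 to 63938915. It was at 102, 114 and 78.6 CPM in sham and at 130.1, 138 and 134 CPM in SCI. The groups did not overlap, and the sham libraries were spread more widely than the SCI libraries (SD 17.9 and 3.98 CPM around means of 98.2 and 134 CPM). On the log2 scale the difference was 0.44 ± 0.19 with an unadjusted p of 0.0317, and it did not pass over all genes (edgeR adjusted p = 0.583). When the hepatocyte level entered the fit, Klf13 was called higher, at 0.49 ± 0.12 (edgeR adjusted p = 0.0285). Opposite-strand genes overlap Klf13 in GENCODE M21, and whether the counting used strand is not given in the sources used here; neither of them passed the filter on low counts.

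**Figure D2:**
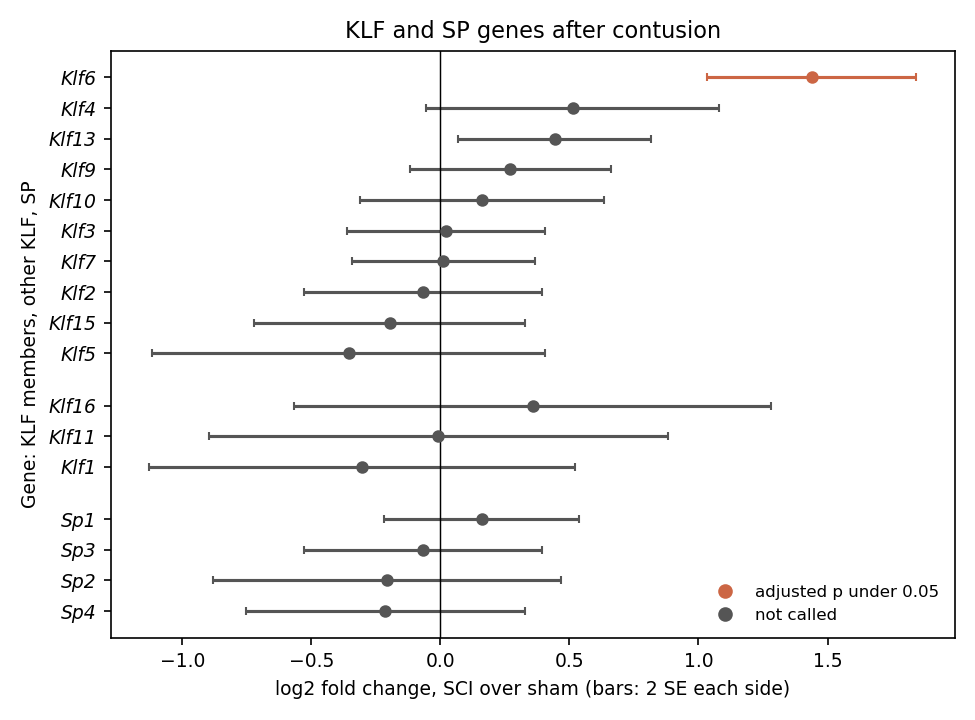
Log2 fold changes of SCI over sham for the 10 KLF genes, 3 other tested KLF genes and 4 tested SP genes, with bars of 2 SE on each side. Klf6 (1.44) is the one called gene, the bar of Klf13 (0.07 to 0.82) lies above 0, and the bars of the others cross 0.

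Klf10, the early TGF-beta-inducible gene, lies at chromosome 15, 38291463 to 38300706. It was at 17.1, 21.5 and 11.1 CPM in sham and at 18.6, 18.0 and 20.2 CPM in SCI. The SCI libraries lay close together inside the sham range. Klf10 had a log2 fold change of 0.16 ± 0.24 (edgeR adjusted p = 0.948), with -0.31 to 0.63 at 2 SE. The ratio of Klf10 to Klf9 did not separate the groups (exact two-sided permutation test, p = 1). Of 11 tested genes induced early by TGF-beta, with a median log2 fold change of 0.20, 0 were called lower. Called higher were 2 of the 11, beside 0.885% of all genes tested. Among them was the AP-1 subunit Junb, which rose by 1.51 ± 0.25 (edgeR adjusted p = 0.00426, and 0.0542 without sham 1), while Smad7, the feedback inhibitor of the pathway, was at 16.1 ± 2.76 and 17.7 ± 0.817 CPM (chosen after its values were seen).

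Klf15, a glucocorticoid-induced regulator of amino acid breakdown in liver and muscle, lies at chromosome 6, 90462576 to 90475238. It was at 12.6, 23.7 and 12.5 CPM in sham and at 16.1, 14.3 and 12.9 CPM in SCI. Sham 2 stood apart above the other 5 libraries. The log2 fold change was -0.20 ± 0.26 (edgeR adjusted p = 0.936), and it was 0.20 ± 0.24 without sham 2. Sham 2 also held the most hepatocyte transcripts, with a mean log2 CPM of 11.1 over the 18 genes against 10.5 in sham 1, 10.02 in sham 3 and 10.4 to 10.6 in SCI. Klf10 was likewise highest in sham 2 and lowest in sham 3. The part of liver RNA in either level was not tested beyond the fit that holds the hepatocyte level as a covariate. There Klf15 was at -0.03 ± 0.22 and Klf10 at 0.29 ± 0.19 (log2, SE; edgeR adjusted p = 0.972 and 0.577).

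**Figure D3:**
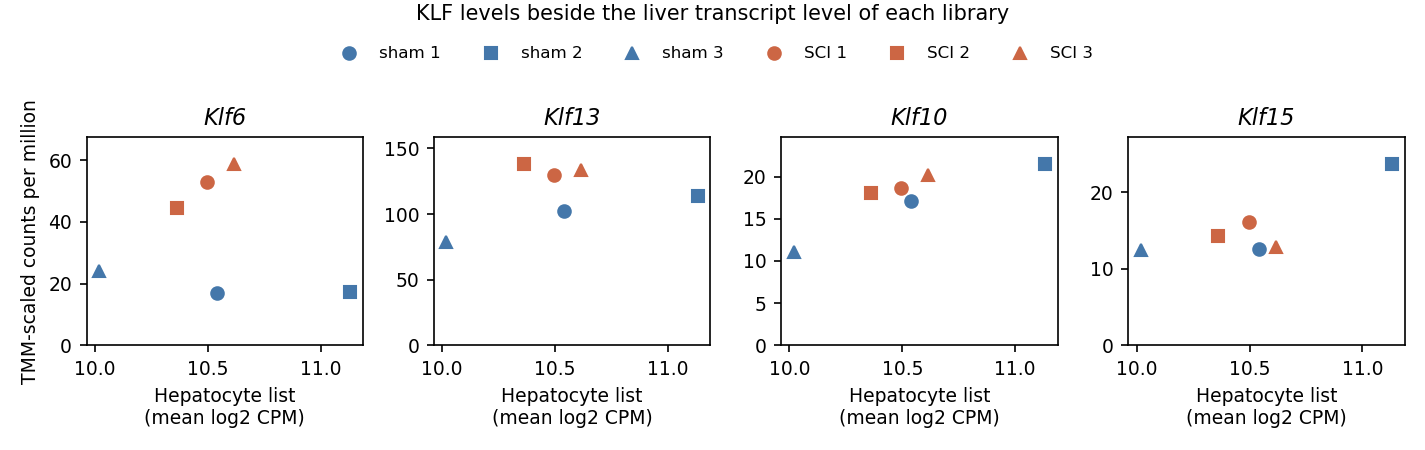
TMM-scaled CPM of 4 KLF genes in each library against the mean log2 CPM of 18 hepatocyte genes in that library, with sham in blue and SCI in orange. Sham 2, at 11.1, is the rightmost point and holds the highest Klf10 (21.5 CPM) and Klf15 (23.7 CPM), while every SCI point of Klf6 (44.6 CPM or more) lies above every sham point (24.1 CPM or less).

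Genes induced by glucocorticoids, the hormones that also drive Klf9, Klf13 and Klf15, were called higher in 7 of 19 tested members and lower in 0. Over all genes tested the shares were 0.885% and 0.0442%. The median log2 fold change of the 19 was 0.67. Sgk1, a kinase of ion transport, rose by 1.59 ± 0.19, Cebpd, a transcription factor of acute inflammation, by 2.38 ± 0.22, and Zbtb16, a zinc finger factor, by 0.88 ± 0.19 (log2, SE). The call of Zbtb16 was lost without sham 1 or any one of the SCI libraries (edgeR adjusted p from 0.0849 to 0.352). Other inputs such as inflammatory signals also raise several of these genes. Fkbp5 and Tsc22d3 of the same list had log2 fold changes of 0.11 ± 0.21 and 0.01 ± 0.17 (chosen after their values were seen). Per1 and Ddit4, also chosen after their values were seen, were at 0.68 ± 0.21 and 0.67 ± 0.18 (edgeR adjusted p = 0.269 and 0.162). In all, 17 of the 19 log2 fold changes were positive. The part of glucocorticoids in these levels was not tested. Of 10 tested genes of amino acid metabolism that KLF15 is known to control, none was called by edgeR. An unadjusted p under 0.05 was found for 1 of the 10, beside 7.38% of all genes tested. That gene was Tat, a liver enzyme of tyrosine breakdown, with 14.3 ± 8.38 (sham) and 7.07 ± 3.22 CPM (SCI) (edgeR adjusted p = 0.494). Tat is also among the 18 hepatocyte genes, and it was at 9.19, 24.0 and 9.76 CPM in sham libraries 1 to 3. Sham 2, its highest library, held the most hepatocyte transcripts.

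Among 16 tested axon growth genes, the setting in which KLF6 and KLF7 are best known, 2 were called higher and 0 lower. Over all genes tested the shares were 0.885% and 0.0442%. The median log2 fold change of the 16 was 0.19. Atf3, the injury-induced transcription factor, was at 2.76, 1.25 and 1.36 CPM in sham and at 17.7, 17.2 and 16.7 CPM in SCI, a rise of 3.23 ± 0.32. The other was Cdkn1a, the cell cycle inhibitor p21, which rose by 2.05 ± 0.20 and also stands in the glucocorticoid list. Jun, a partner of Atf3, had levels of 65.3 ± 10.6 (sham) and 112 ± 15.6 CPM (SCI) (edgeR adjusted p = 0.0953), and Gap43, a growth cone protein, had a log2 fold change of -0.01 ± 0.19 (chosen after its values were seen).

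The cofactors of the family were measured alongside. Of 13 tested cofactor genes none was called by edgeR and 2 had an unadjusted p under 0.05, beside 7.38% of all genes tested. Positive log2 fold changes were found in 1 of the 13, with a median of -0.15, and in 6734 of all 13560 genes. The acetyltransferase genes Kat2b and Ep300 were at 30.4 ± 3.34 and 58.9 ± 4.48 CPM in sham and at 20.7 ± 1.93 and 45.9 ± 1.65 CPM in SCI (edgeR adjusted p = 0.394 and 0.674). The corepressor gene Sin3a had a log2 fold change of -0.15 ± 0.21 and Ctbp1 one of -0.15 ± 0.22 (chosen after their values were seen). Of 7 ubiquitin ligase genes that act on KLF proteins, none was called by edgeR and 0 had an unadjusted p under 0.05.

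The order of levels among the 10 was led by Klf9, Klf13 and Klf7 in both groups. Klf9 alone made up 41.7 ± 2.18% of the summed CPM of the 10 in sham and 41.0 ± 3.24% in SCI. In sham, the ranges of Klf13 and Klf7 overlapped, and neighbours from Klf6 through Klf10, Klf15 and Klf4 to Klf2 overlapped as well. In SCI, Klf6 moved from the fifth to the fourth place, where its range overlapped that of Klf3, and its share went from 3.61 ± 0.814% to 7.89 ± 1.36%. The summed level of the 10 was 509 to 583 CPM in sham and 632 to 679 CPM in SCI.

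**Figure D4:**
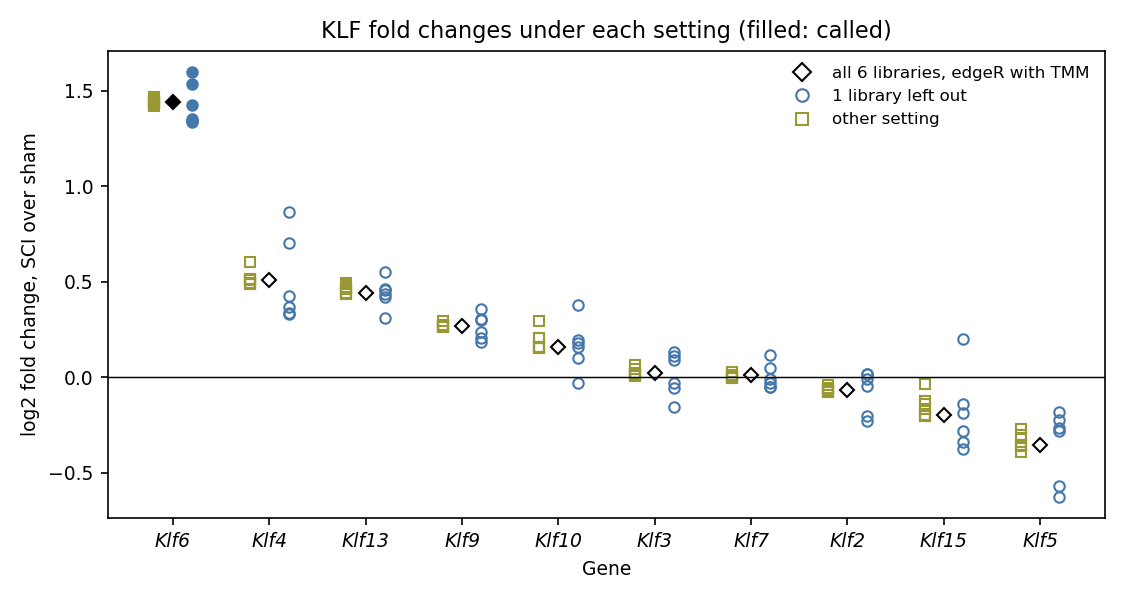
Log2 fold changes of the 10 KLF genes with all 6 libraries (diamonds), with 1 library left out (circles) and under 8 other settings (squares), filled where the gene was called. Klf6 is filled throughout (1.34 to 1.60), Klf13 is filled under 1 other setting, and the values of Klf2, Klf3, Klf7, Klf10 and Klf15 lie on both sides of 0.

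The rest of the family was scarce in these libraries. Of 7 other KLF genes, 3 were tested and none was called by edgeR, with 0 at an unadjusted p under 0.05. Klf11, a relative of Klf10, had a log2 fold change of -0.01 ± 0.44 and Klf16, a relative of Klf9, one of 0.36 ± 0.46. Klf8 and Klf12, which bind CtBP as Klf3 does, did not pass the filter, with 12 and 14 counts over the sham libraries and 17 and 19 over the SCI libraries. Klf17 had no count in any library, and Klf14 had 1 count, in SCI 1. Of 9 SP genes, whose zinc fingers resemble those of the KLFs, 4 were tested and none was called by edgeR, with 0 at an unadjusted p under 0.05. Sp1, which shares GC boxes with the KLFs, had levels of 24.3 ± 1.32 (sham) and 27.0 ± 3.03 CPM (SCI).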

How the data were processed

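The authors deposited 1 table of whole-number read counts per gene for each library, not normalized. Per the labels, reads of QuantSeq Forward libraries were aligned with STAR 2.7.2b to mm10 with the Ensembl 96 annotation, and DESeq2 1.24.0 is named in the submitters' processing notes. For the counting tool, its strand setting and its handling of multiple matches, nothing is given in the sources used here. Symbols were matched to 42462 of 43432 identifiers, and identifiers without one held 0.0884% of counts. Positions came from GENCODE M21 (GRCm38), and promoters from RefSeq (GRCm38.p6).

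Genes were filtered with filterByExpr, scaled by TMM and compared with edgeR's quasi-likelihood test with robust estimation (edgeR 4.0.16, limma 3.58.1, DESeq2 1.42.0, R 4.3.3) in all 6 libraries without covariates, with p adjusted over 13560 genes. The SE of a log2 fold change was derived from its F statistic, as its size over the root of F. Alternatives were RLE or total-count scaling, no or a stricter filter (5 CPM in 3 libraries), DESeq2, limma voom, a replicate block, the hepatocyte level as a covariate and each library left out. The procedure was also run on simulated counts. These held no shift between libraries like that of the hepatocyte genes and no added change as small as that of Klf13. The simulation therefore does not check how the procedure handles either. The 3 counts taken as the limit of a count of 0 correspond to 0.289 to 0.813 CPM, counting error only. Within each group every pair of libraries differed beyond sampling noise (chi-square per degree of freedom 6.97 to 38.0).

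The members and lists were chosen with earlier results of these data known. The named genes are the 10 members, all tested genes of the KLF and SP lists, of each other list the called genes and the 3 with the smallest p, the 2 most abundant of each cell list, and the 3 genes most correlated with each called member. Some genes under this rule are left unreported, and 1 called gene is not reported here. A planned comparison of protein sequences was not run. Ctgf, Cap23 and 1 erythroid marker had no match under the symbols listed.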

Additional observations from a re-analysis of the deposited data

How the results depend on the processing

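Klf6 kept its direction and its call under all 14 alternatives, with log2 fold changes of 1.34 to 1.60. Klf4, Klf9 and Klf13 stayed positive under all 14 and Klf5 stayed negative under the 13 in which it was tested, none of them called except Klf13 with the hepatocyte covariate, which made 2 KLF genes higher. Over all genes, 182 were higher and 42 lower with no filter on low counts, and 209 and 29 with the hepatocyte covariate. The lower genes numbered 3 with the stricter filter, 11 with DESeq2 and 1 with a replicate block. Leaving out 1 library gave 62 to 132 higher and 1 to 14 lower genes. The extremes were 62 and 1 without sham 1 and 132 and 14 without sham 3. Lower genes numbered 12 when sham 2 was left out, 3 for SCI 1, 3 for SCI 2 and 2 for SCI 3. The cause was not tested. With 1 library left out, log2 fold changes ran from -0.23 to 0.019 for Klf2, -0.16 to 0.13 for Klf3, -0.051 to 0.12 for Klf7, -0.031 to 0.38 for Klf10 and -0.37 to 0.20 for Klf15. Klf7 was at -0.0020 with limma voom and -0.0036 with the hepatocyte covariate. No label says whether a replicate number marks a shared batch. Deviations from the group mean correlated at -0.08, -0.07 and -0.17 in same-numbered libraries and at -0.06 to 0.12 in the other pairs. Deviations from a mean of 3 libraries depend on each other, so these values cannot settle whether the numbers pair the samples. With the replicate block 81 genes were higher, and Klf6 was at 1.43 ± 0.20 (edgeR adjusted p = 0.0112). The block changed no call among the 10 KLF genes. Depth limits Klf5 most, with 9 counts in sham 3. With the block, calls of the named genes Edn1, Zbtb16, P2ry12, Hbb-bs and Alas2 were lost, at edgeR adjusted p of 0.0829, 0.157, 0.0948, 0.183 and 0.164. With the hepatocyte covariate, Hba-a1, Hba-a2 and Hbb-bt were at adjusted p of 0.343, 0.339 and 0.103. With total counts, the stricter filter and limma voom, Zbtb16 was at adjusted p of 0.0641, 0.054 and 0.0538. Alas2 was at 0.0604 with the stricter filter and 0.106 with limma voom. These settings for named genes outside the family were read after seeing the data.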

Other observations

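Klf1, the master regulator of red cell genes, was at 2.49, 3.95 and 2.17 CPM in sham and at 2.30, 2.89 and 1.98 CPM in SCI (log2 fold change -0.30 ± 0.41; edgeR adjusted p = 0.940). Globins and other erythroid transcripts, whose genes KLF1 activates in red cell precursors, were called higher in 5 of 7 tested markers, beside 0.885% of all genes. The 9 matched markers summed to 657 to 896 CPM in sham and 1636 to 4317 CPM in SCI, so the groups overlapped for Klf1 and not for the markers. Sp4, an SP factor of neurons, was lower in 3 of 3 SCI libraries than in any sham library (7.17 ± 0.187 and 6.19 ± 0.473 CPM). Of all genes tested, 5.94% lay wholly below sham in this way. The difference of Sp4 did not pass the test (edgeR adjusted p = 0.934).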
